A study of Homo sapiens with 18 samples.

Results

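The 45 genes described here encode the anaphase-promoting complex (APC/C), the spindle checkpoint and the kinases, spindle proteins and condensins of mitosis. They were taken by gene symbol from the 20365 genes of each deposited expression table. No measured value enters that rule, though the list was drawn up with earlier results of these data known. Below, 12 are counted as APC/C core subunits, 30 as genes whose transcripts are known to vary over the cell cycle (called cell-cycle regulated), and 3 (FZR1, BUB3 and MAD1L1) as other genes with a steadier transcript. In each experiment 43 of the 45 passed the filter on low values, a mean of at least 10 normalised counts over its 9 libraries. The remaining members were MAD1L1, a checkpoint scaffold, with 0 to 3 reads in every library, and NUSAP1, a microtubule-bundling protein. NUSAP1 lay between 1.97 and 12.2 normalised counts over the 18 libraries, and 62.2% of its annotated exon length is shared with another gene on the same strand. Neither was tested.

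The APC/C is a ubiquitin ligase that ends mitosis by marking securin and cyclin B for destruction. It needs a coactivator, CDC20 in mitosis and FZR1 (CDH1) afterwards, and the paired E2 enzymes UBE2C and UBE2S, which start and extend the ubiquitin chain. Unattached kinetochores, through MAD2L1, BUB1B, BUB3 and the kinases BUB1 and TTK, hold CDC20 in an inhibitory complex until chromosomes are aligned. Transcripts of many mitotic genes are low in G1 and rise toward mitosis through B-MYB, FOXM1 and the MuvB core, which acts at the CHR promoter element TTTGAA, while most APC/C core subunits are transcribed throughout the cycle.

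RNA was sequenced from PC3 cells, an established prostate cancer line, in 18 libraries. In the peptide experiment the medium held 2.5% serum, and cells were exposed for 24 h to 12500 nM of a peptide. WT peptide carried the unaltered BC-box, Mutant peptide a changed BC-box, and scrambled peptide was the control. In the knockdown experiment, in 10% serum, lentiviral hairpins reduced Elongin B in EloB KD and Elongin C in EloC KD, with Control KD as the reference hairpin. Each of the 6 groups had 3 libraries. The BC-box is the short motif by which substrate receptors and Elongin A bind the Elongin BC dimer, and the design asks what happens to transcripts when that dimer is depleted or its binding face is occupied. The labels do not say which residue is changed in the Mutant peptide, how many hairpins were used or whether replicates are independent cultures. The p-values therefore describe the spread among these libraries.

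Between 40.29 and 57.23 M reads were counted per knockdown library and between 31.67 and 34.70 M per peptide library. The targeted transcripts were low where the labels say so. ELOB had 10.3 ± 1.35 reads per kb of exon per M reads in EloB KD against 69.4 ± 21.6 in Control KD, and ELOC had 2.09 ± 0.174 in EloC KD against 18.3 ± 1.54 in Control KD (SD, n = 3 each). The epithelial genes KRT8, KRT18, EPCAM and CD44 were detected in every library, with EPCAM lowest at 365.5 normalised counts. KLK3, which encodes prostate-specific antigen, was listed at 0 in all 18 libraries.

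Within the members, levels per length (reads per kb of exon per M reads) spanned a wide range. With the scrambled peptide UBE2C was highest at 123 ± 13.1, followed by TPX2, a spindle assembly factor and activator of Aurora A, at 90.0 ± 11.8, CDC20 at 61.8 ± 2.94 and TOP2A, the topoisomerase that decatenates sister chromatids, at 54.3 ± 4.98. UBE2C and TPX2 lay farther apart than 1 SD of either. CDC20 and TOP2A differed by more than the SD of each. The lowest tested members were PRC1 at 0.918 ± 0.0431, for which 57.6% of the exon length is shared with a same-strand gene, and the APC/C subunit ANAPC10 at 2.34 ± 0.108. The median level per length of the 30 cell-cycle regulated members was 33.8 with the WT peptide, 28.8 with the Mutant peptide and 24.2 with the scrambled peptide. For the 12 APC/C core subunits it was 15.7 with the WT peptide, 15.4 with the Mutant peptide and 14.6 with the scrambled peptide.

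Promoter sequence is shown for 4 cell-cycle regulated members that were higher with the WT peptide, each holding both elements searched, and for CDC23, the APC/C core subunit called in both knockdowns. They were picked after the matches and calls were seen. The sequences are the 150 bases before the RefSeq start (GRCh38.p14), read 5′ to 3′ on the gene's strand. Capitals mark the CHR element TTTGAA and the CCAAT box bound by NF-Y, on either strand (TTCAAA and ATTGG on the other), and capitals that run on mark neighbouring or overlapping matches. CDCA8 encodes borealin of the chromosomal passenger complex (chr1:37692366-37692515, plus strand), CDC20 the mitotic APC/C coactivator (chr1:43358831-43358980, plus strand), HMMR a spindle-associated hyaluronan receptor (chr5:163460482-163460631, plus strand), MKI67 the chromosome surfactant Ki-67 (chr10:128126424-128126573, minus strand) and CDC23 a scaffold subunit of the APC/C (chr5:138213324-138213473, minus strand).
CDCA8: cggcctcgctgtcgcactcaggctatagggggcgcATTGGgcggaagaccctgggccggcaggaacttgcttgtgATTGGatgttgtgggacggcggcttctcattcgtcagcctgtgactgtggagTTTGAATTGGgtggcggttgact
CDC20: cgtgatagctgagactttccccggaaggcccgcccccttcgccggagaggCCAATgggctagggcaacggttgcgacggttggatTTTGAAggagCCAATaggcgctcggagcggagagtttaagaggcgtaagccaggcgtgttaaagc
HMMR: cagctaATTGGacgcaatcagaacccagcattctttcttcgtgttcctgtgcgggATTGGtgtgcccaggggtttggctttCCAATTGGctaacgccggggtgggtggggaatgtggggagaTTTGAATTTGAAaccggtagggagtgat
MKI67: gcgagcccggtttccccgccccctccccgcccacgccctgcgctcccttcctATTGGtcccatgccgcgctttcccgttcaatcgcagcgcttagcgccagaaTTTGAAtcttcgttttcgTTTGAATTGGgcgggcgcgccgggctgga
CDC23: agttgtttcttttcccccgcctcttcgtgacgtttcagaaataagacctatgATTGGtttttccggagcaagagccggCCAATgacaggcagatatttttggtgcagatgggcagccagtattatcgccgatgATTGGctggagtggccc

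In the window searched, 250 bases before to 50 after the start, 39 of the 45 members had an entry, and AURKA, BUB3, FOXM1, TPX2, TTK and UBE2C did not. TTTGAA was present in 19 of 25 cell-cycle regulated members (76.0%) and 3 of 12 APC/C core subunits (25.0%), beside 15.2% of all 35116 promoters and 14.0% of the genes tested in the peptide experiment. CCAAT was present in 20 of 25 (80.0%) and 5 of 12 (41.7%), beside 34.6% of all promoters and 43.5% of the tested genes. Both elements occurred in 14 of 25 cell-cycle regulated members and in none of the 12 core subunits, beside 5.90% of all promoters. Among the 24 cell-cycle regulated members with an entry that were tested, the 18 with TTTGAA had 12 calls with the WT peptide and a median log2 fold change of 0.44, and the 6 without it had 5 calls and a median of 0.48. A match describes letters in the window only.

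With the WT peptide, against the scrambled peptide, the cell-cycle regulated members were higher together while the APC/C core hardly moved. In the limma fit across all genes, 21 of 43 tested members were called (Benjamini-Hochberg adjusted p under 0.05), all higher, beside 1.43% of all 13105 genes tested (0.839% higher). They comprised 20 of 29 cell-cycle regulated members, with a median log2 fold change of 0.48 over the 29, and 1 of 12 APC/C core subunits, with a median of 0.03 over the 12. The median of all genes was 0.00. Every WT peptide library exceeded every scrambled one for 31 members, and 1 member had the reverse, beside 19.7% of all genes whose groups did not overlap in either direction. These are bulk samples, so a larger share of cells in G2 and mitosis and more transcript per cell cannot be told apart. With the replicate number as a block, 34 members were called, all higher, beside 1043 higher and 1079 lower of all 13105 genes tested.

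**Figure D1:**
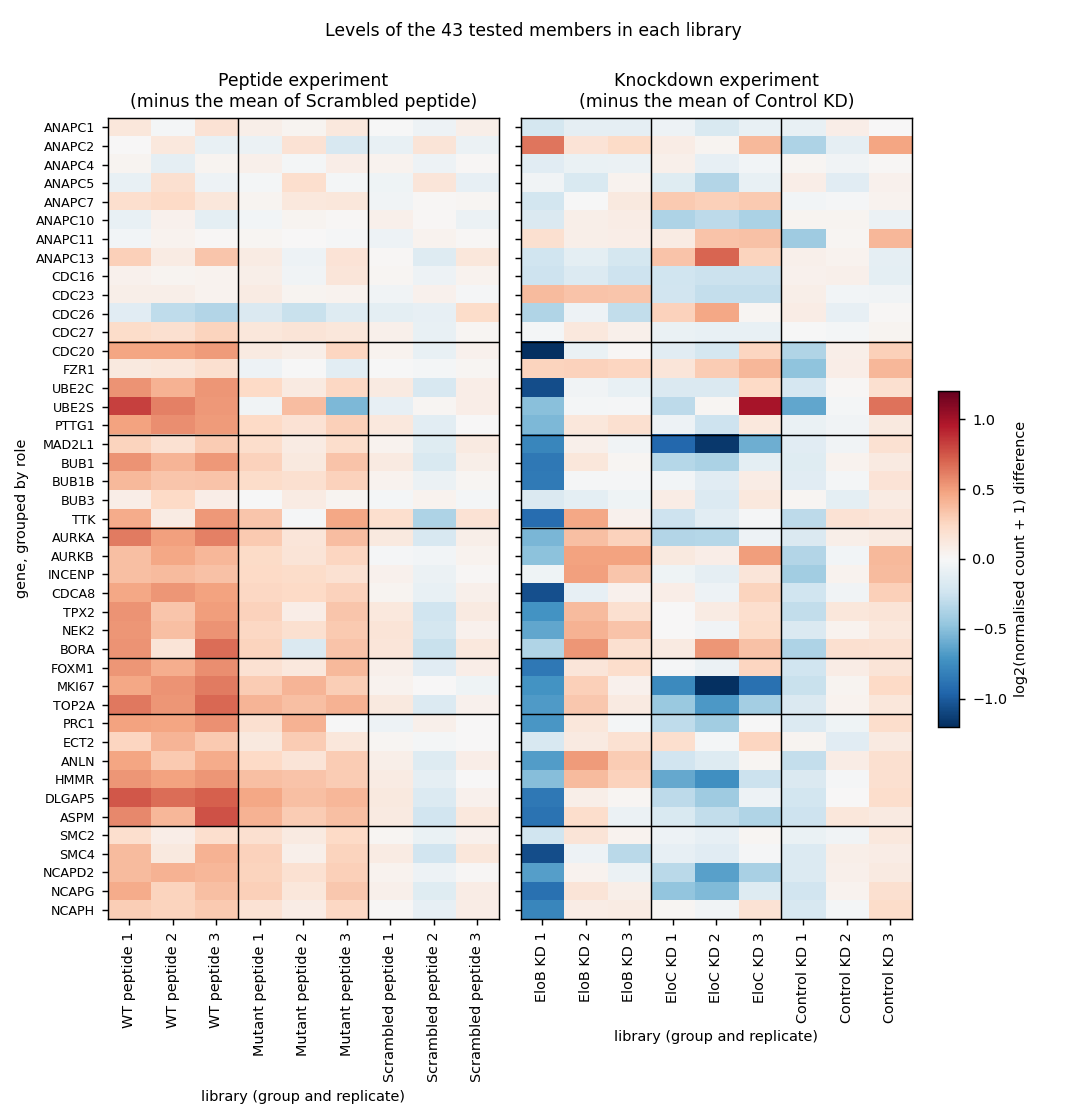
Heat map of log2(normalised count + 1) for the 43 tested members (rows, grouped by role, lines between roles) in each library (columns), less the mean of the scrambled peptide libraries (left) or of the Control KD libraries (right). Below the 12 APC/C core rows at the top, nearly all rows are red in the WT peptide columns and paler in the Mutant peptide columns, and EloB KD replicate 1 is blue in most of them. Colours saturate at the ends of the scale.

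Of the coactivators, E2 enzymes and securin, 3 of 5 members were called higher, and all 5 estimates were positive. CDC20 had 5879, 5848 and 6034 normalised counts in WT peptide libraries, against 4344, 3973 and 4365 in scrambled peptide libraries. The groups did not overlap, and the log2 fold change was 0.49 ± 0.06 (SE, limma adjusted p = 0.00365). PTTG1 (securin), which holds separase inactive and is the APC/C substrate whose loss lets sister chromatids part, had 2513, 2640 and 2560 with the WT peptide and 1959, 1647 and 1802 with the scrambled peptide. Its log2 fold change was 0.52 ± 0.06 (limma adjusted p = 0.00450). UBE2C rose by 0.49 ± 0.08 (limma adjusted p = 0.0169). UBE2S had the second largest estimate of all members, 0.65 ± 0.19, but did not pass (limma adjusted p = 0.149). It had 1509, 1299 and 1221 with the WT peptide and 795.2, 864.5 and 900.2 with the scrambled one. Its SE rests on the spread shared by the 3 groups, which was widest with the Mutant peptide. Per kb of exon per M reads, UBE2S had 8.98 ± 2.83 with the Mutant, 14.2 ± 1.57 with the WT and 9.12 ± 0.598 with the scrambled peptide (SD). FZR1, the coactivator of late mitosis and G1, had 0.15 ± 0.05 (limma adjusted p = 0.198).

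Of the spindle checkpoint genes, 2 of 5 tested members were called higher, and all 5 estimates were positive. BUB1B (BUBR1), a subunit of the inhibitory complex itself, had 4085, 3919 and 3940 normalised counts with the WT peptide against 3199, 2975 and 3176 with the scrambled peptide. The 3 WT peptide libraries lay close together and all above the scrambled ones, with a log2 fold change of 0.35 ± 0.04 (limma adjusted p = 0.00460). BUB1, the kinase that marks centromeric histone H2A, rose by 0.49 ± 0.08 (limma adjusted p = 0.0222). MAD2L1, which binds CDC20 in the inhibitory complex, had 0.25 ± 0.07, and TTK, the apical checkpoint kinase MPS1, had 0.36 ± 0.18. BUB3, a small adaptor that is abundant throughout the cycle, had 0.13 ± 0.05. These last 3 missed the threshold.

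The Aurora kinases, the passenger complex and their regulators had 5 of 7 members called higher, and all 7 estimates were positive. AURKA, the centrosomal Aurora kinase, had 6168, 5636 and 6104 normalised counts with the WT peptide against 4366, 3508 and 4222 with the scrambled peptide, a log2 fold change of 0.57 ± 0.09 (limma adjusted p = 0.0142). The 3 passenger complex members measured here moved by similar amounts. AURKB, its kinase, had 1477, 1586 and 1512 with the WT peptide against 1138, 1124 and 1178 with the scrambled one (0.41 ± 0.05, limma adjusted p = 0.00451). INCENP, its scaffold, had 3542, 3572 and 3503 with the WT peptide and 2844, 2628 and 2785 with the scrambled peptide (0.36 ± 0.04, limma adjusted p = 0.00333). CDCA8, whose promoter is shown above, had 3078, 3226 and 3124 with the WT peptide and 2285, 2095 and 2330 with the scrambled peptide (0.49 ± 0.05, limma adjusted p = 0.00175). In none of these genes did the groups overlap. NEK2, a kinase that separates centrosomes, rose by 0.48 ± 0.09. TPX2 had 0.46 ± 0.10 and the Aurora A cofactor BORA 0.46 ± 0.18 without passing, and BORA shares 37.0% of its exon length with DIS3 on the other strand.

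All 3 proliferation genes rose. MKI67 (chr10:128096659-128126385, GRCh38) had 10038, 10519 and 11153 normalised counts with the WT peptide against 7487, 7285 and 7013 with the scrambled peptide, a log2 fold change of 0.54 ± 0.05 (limma adjusted p = 0.00150). TOP2A had 18155, 16890 and 18840 with the WT peptide against 12641, 10453 and 12073 with the scrambled one (0.62 ± 0.07, limma adjusted p = 0.00328). FOXM1, the transcription factor of many G2 genes, rose by 0.51 ± 0.08 (limma adjusted p = 0.0142). Separation of the groups was complete for all 3.

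**Figure D2:**
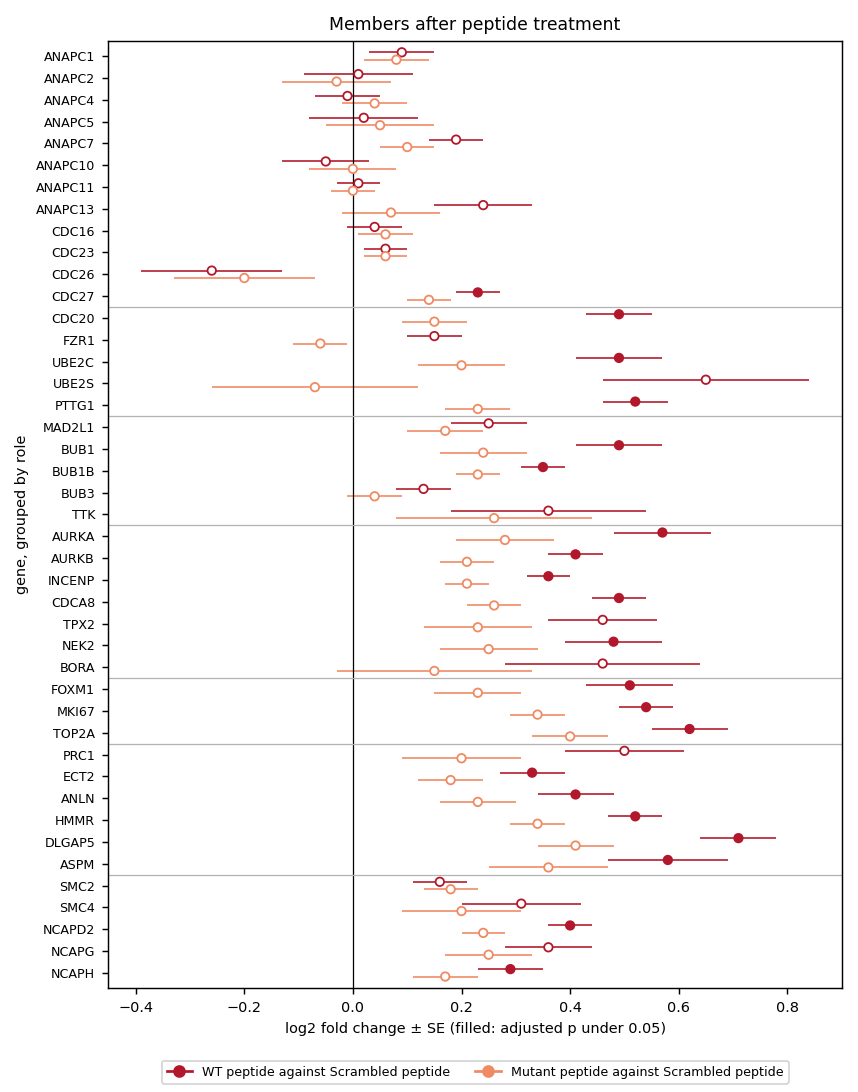
Log2 fold change with its SE for each tested member, WT peptide (dark red) and Mutant peptide (orange) against scrambled peptide, grouped by role. Filled points passed an adjusted p of 0.05, as 21 WT peptide points and 0 Mutant peptide points did, and most of the 12 APC/C core subunits at the top lie near 0 for both.

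Spindle and cytokinesis genes held the largest change. DLGAP5 (HURP, chr14:55148112-55191678, GRCh38), a stabiliser of kinetochore fibres, had 5294, 5018 and 5177 normalised counts with the WT peptide against 3409, 2815 and 3267 with the scrambled peptide. Its log2 fold change of 0.71 ± 0.07 corresponds to a 1.64-fold higher level (limma adjusted p = 0.00150). HMMR had 4784, 4624 and 4785 with the WT peptide and 3545, 3070 and 3327 with the scrambled peptide (0.52 ± 0.05, limma adjusted p = 0.00217). ASPM, a spindle pole protein, ANLN, a contractile ring scaffold, and ECT2, the guanine nucleotide exchange factor that activates RhoA for cytokinesis, rose by 0.58 ± 0.11, 0.41 ± 0.07 and 0.33 ± 0.06. PRC1, the antiparallel microtubule bundler of the midzone, had 0.50 ± 0.11 and missed the threshold (limma adjusted p = 0.0733).

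Condensin I, the ring complex that compacts mitotic chromosomes, had 2 of its 5 subunits called higher, and all 5 estimates were positive. NCAPD2 had 7673, 7835 and 7735 normalised counts with the WT peptide against 6062, 5655 and 5932 with the scrambled peptide (0.40 ± 0.04, limma adjusted p = 0.00261). NCAPH, the kleisin that closes the ring, rose by 0.29 ± 0.06 (limma adjusted p = 0.0435). The ATPase subunits SMC2 and SMC4, which condensin II also uses, had 0.16 ± 0.05 and 0.31 ± 0.11, and NCAPG had 0.36 ± 0.08, none passing. SMC4 and NCAPG overlap other-strand genes over 25.6% and 33.1% of their exon length.

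Among the APC/C core subunits CDC27, a tetratricopeptide arm subunit that receives the coactivators, was the single call. It averaged 6983 ± 178 normalised counts with the WT peptide and 5979 ± 318 with the scrambled peptide (SD, n = 3 each), a log2 fold change of 0.23 ± 0.04 (limma adjusted p = 0.0452). The call was lost under quantile scaling, without the filter, and without each of the 6 libraries in turn. The other core subunits ranged upward from -0.26 ± 0.13 for CDC26, a small stabiliser of the CDC16 arm, to 0.24 ± 0.09 for ANAPC13. The catalytic pair, the cullin-like ANAPC2 and the RING subunit ANAPC11, both had 0.01. Of the 21 calls, 11 held without each of the 6 libraries in turn, and the count fell to 11 without WT peptide replicate 1 and likewise without WT peptide replicate 3.

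**Figure D3:**
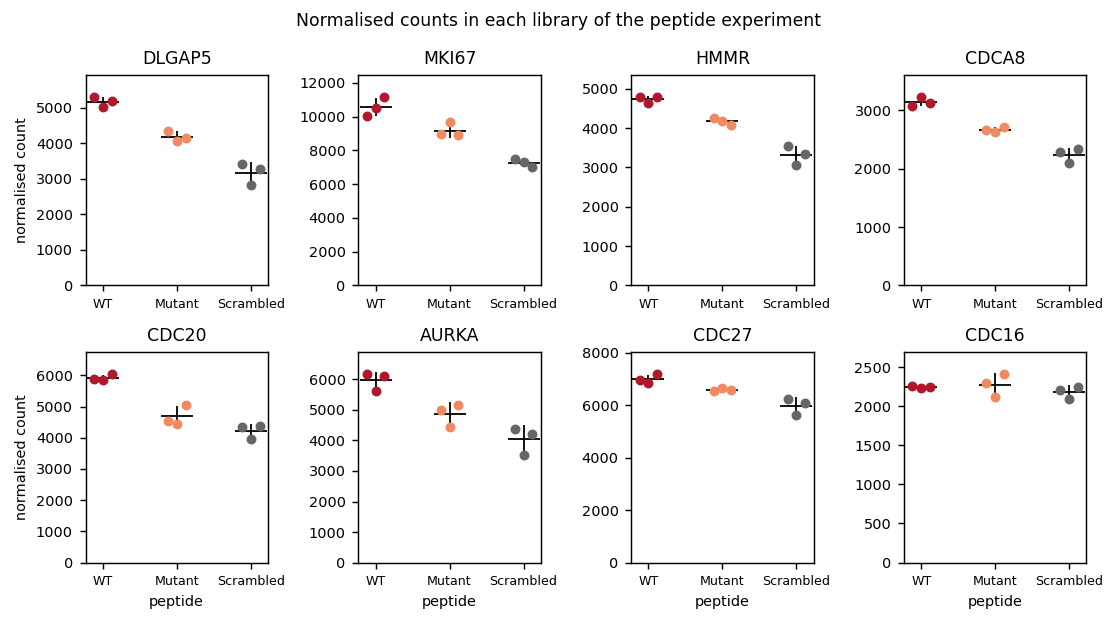
Normalised counts of 8 members in each library of the peptide experiment, with the mean and SD in black; axes start at 0. In DLGAP5, MKI67, HMMR, CDCA8, CDC20 and AURKA the 3 WT peptide points lie above the 3 Mutant peptide points, which lie above the 3 scrambled points; CDC27 keeps that order with smaller steps and in CDC16 the groups overlap.

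With the Mutant peptide, against the scrambled peptide, values leaned upward but no member was called. The limma fit called 0 of 43 members, beside 0% of all genes tested. Positive estimates were found for 39 of 43 members, with a median log2 fold change of 0.20, of 0.23 over the 29 cell-cycle regulated members and of 0.05 over the 12 core subunits, beside 0.00 for all genes. Unadjusted p was under 0.05 for 24 members and for 1142 of all 13105 genes. DESeq2 called 9 members and edgeR 0, given without their counts over all genes, so no share is compared. With the replicate number as a block, 27 members were called higher and 0 lower, beside 487 and 601 of all genes. Without replicate 2 of every group, a choice made after seeing the data, 3 members were called, likewise without a count over all genes.

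By role, the members with the smallest adjusted p lay between the other 2 groups in most libraries. MKI67 had 8947, 9659 and 8904 normalised counts with the Mutant peptide against 7487, 7285 and 7013 with the scrambled peptide (0.34 ± 0.05, limma adjusted p = 0.0739). HMMR had 4255, 4190 and 4085 with the Mutant peptide and the scrambled values given above (0.34 ± 0.05, limma adjusted p = 0.0739). NCAPD2 had 7069, 6663 and 7159 (0.24 ± 0.04, limma adjusted p = 0.113), and CDCA8 had 2659, 2633 and 2715 (0.26 ± 0.05, limma adjusted p = 0.120). In all 4 genes the Mutant peptide libraries were above every scrambled library and below every WT peptide library. BUB1B had 3636, 3560 and 3780 with the Mutant peptide (0.23 ± 0.04, limma adjusted p = 0.125), and PTTG1 had 2125, 2027 and 2186 (0.23 ± 0.06, limma adjusted p = 0.277). CDC27 had 6551, 6652 and 6573 with the Mutant peptide against 6226, 5620 and 6090 with the scrambled one (0.14 ± 0.04, limma adjusted p = 0.374).

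The WT and Mutant peptides, which differ in a BC-box change that the labels do not specify, were compared directly at the same dose and time. The limma fit called 0 of 43 members, beside 0% of all genes, with an unadjusted p under 0.05 for 21 members and 898 of all genes. DESeq2 called 6 members and edgeR 0, again given without their counts over all genes. The fit with the replicate block called 22, all higher with the WT peptide, beside 315 higher and 221 lower of all genes. The median log2 fold change was 0.15 over the 43 members and 0.22 over the 29 cell-cycle regulated ones. CDC20 had 5879, 5848 and 6034 normalised counts with the WT peptide against 4541, 4449 and 5059 with the Mutant peptide, a log2 fold change of 0.34 ± 0.06 with a 95% interval of 0.21 to 0.47 (limma adjusted p = 0.152). UBE2S had 1509, 1299 and 1221 with the WT peptide against 828.8, 1103 and 584.4 with the Mutant peptide (0.72 ± 0.19, 95% interval 0.30 to 1.15, limma adjusted p = 0.442). For the core scaffold ANAPC1 the interval was -0.12 to 0.16 around 0.02.

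Because both peptide comparisons use the same scrambled libraries, their estimates are not independent and are given side by side only. For DLGAP5 the log2 fold change was 0.71 ± 0.07 with the WT peptide and 0.41 ± 0.07 with the Mutant peptide, and for AURKA it was 0.57 ± 0.09 with the WT peptide and 0.28 ± 0.09 with the Mutant peptide. For CDC20 it was 0.49 ± 0.06 with the WT peptide and 0.15 ± 0.06 with the Mutant peptide. Every WT peptide library was above every Mutant peptide library, and every Mutant peptide library above every scrambled one, for 17 of 43 members, beside 0.954% of all genes. These were 16 of the 29 cell-cycle regulated members and CDC27.

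The mean log2 level of the 30 cell-cycle regulated members, less the mean of the scrambled libraries, was 0.462, 0.387 and 0.485 in the WT peptide libraries, 0.247, 0.179 and 0.254 in the Mutant peptide libraries, and 0.085, -0.148 and 0.063 in the scrambled libraries. Replicate 2 was the lowest of its group for 21, 24 and 27 of the 30 members in the WT, Mutant and scrambled groups. Without replicate 2 of every group, all 21 WT peptide calls held. The same mean over the 12 core subunits stayed between -0.017 and 0.054 in all 9 libraries.

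**Figure D4:**
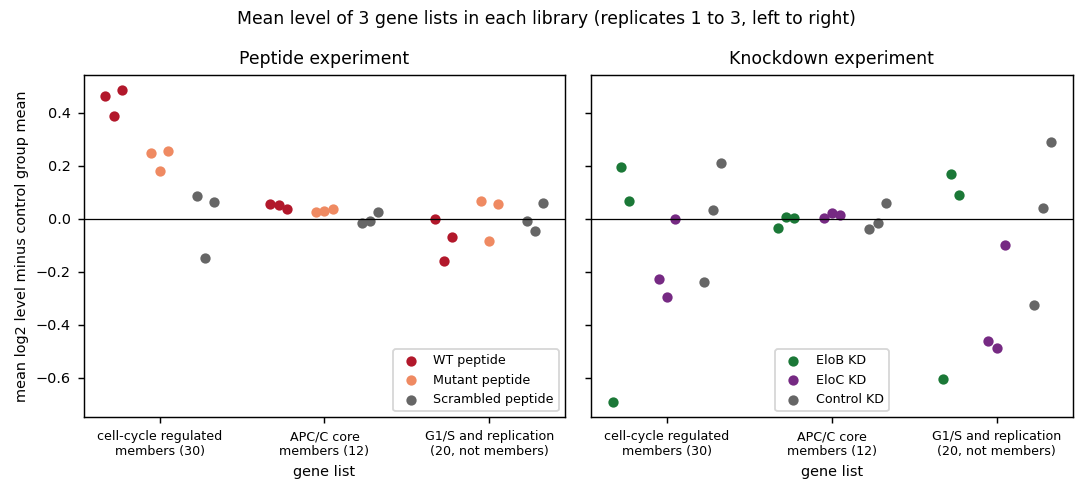
Mean log2(normalised count + 1) of 3 gene lists in each library, less the mean of the scrambled peptide (left) or Control KD (right) libraries. Cell-cycle regulated members step down across the WT, Mutant and scrambled peptide groups, core subunits stay near 0, and in the knockdown experiment EloB KD replicate 1 lies at -0.692 for the cell-cycle regulated members while the other EloB KD libraries lie at 0.195 and 0.065.

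In EloB KD, against Control KD, 1 of 43 members was called and it was higher, beside 20.5% of all 13764 genes tested (9.34% higher), a smaller share than among all genes. CDC23, a tetratricopeptide subunit in the arch of the APC/C (chr5:138187648-138213343, GRCh38), had 4655, 4534 and 4514 normalised counts in EloB KD against 3755, 3503 and 3466 in Control KD. Its groups were well apart and tight, with a log2 fold change of 0.35 ± 0.07 (limma adjusted p = 0.00798). The replicate block gave 3 calls, beside 2410 higher and 2586 lower of all 13764 genes tested. The block added lower CDC16, an adjacent arch subunit, and lower SMC4. There were 2 calls without EloB KD replicate 2 and 2 without Control KD replicate 3. CDC16 had 3244, 3449 and 3251 in EloB KD against 3991, 4029 and 3562 in Control KD (-0.22 ± 0.08, limma adjusted p = 0.0805, 0.0297 with the block).

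Groups did not overlap for 5 of 43 members, all of them core subunits, beside 38.4% of all genes. In limma an unadjusted p was under 0.05 for 1 cell-cycle regulated member in EloB KD, beside 4694 of all 13764 genes tested. No cell-cycle regulated member was called, and their values depended on 1 library. In EloB KD replicate 1 the mean log2 level of the 30 genes, less that of Control KD, was -0.692, while replicates 2 and 3 had 0.195 and 0.065. That library was the lowest of its group for 29 of the 30 and the lowest of all 9 knockdown libraries for 22. MKI67 had 6533, 13049 and 11135 normalised counts in EloB KD against 8906, 10994 and 12640 in Control KD, so that the groups overlapped (-0.13 ± 0.23, limma adjusted p = 0.735). CDC20 had 1977, 4430 and 4729 in EloB KD against 3651, 4936 and 5725 in Control KD (-0.44 ± 0.30, limma adjusted p = 0.329). The median log2 fold change over the 29 tested genes was -0.17, and 0.11 without EloB KD replicate 1. Control KD replicate 1 was likewise the lowest of its group for 29 of the 30. The median SD of log2 levels within groups was 0.343 for the cell-cycle regulated members, 0.098 for the core subunits and 0.172 for all genes tested, against 0.098, 0.066 and 0.104 in the peptide experiment.

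In EloC KD, against Control KD, 7 of 43 members were called, 2 higher and 5 lower, beside 42.5% of all genes tested, again a smaller share than among all genes. MAD2L1 and MKI67 had the largest changes. MAD2L1 (chr4:120055608-120067074, GRCh38) had 2263, 1938 and 2885 normalised counts in the EloC KD libraries against 3942, 4217 and 4908 in Control KD, a log2 fold change of -0.90 ± 0.21 (limma adjusted p = 0.00666). MKI67 had 6303, 4633 and 5775 in EloC KD, and 8906, 10994 and 12640 in Control KD, a log2 fold change of -0.96 ± 0.23 (limma adjusted p = 0.00726). Neither gene's groups overlapped, as for 11 of 43 members in all, beside 53.7% of all genes. Over the 29 cell-cycle regulated members tested, 20 estimates were negative and 9 positive, with a median of -0.06. HMMR had 3909, 3594 and 5016 normalised counts in EloC KD, and 5324, 5932 and 6843 in Control KD (-0.54 ± 0.22, limma adjusted p = 0.0669). TOP2A had 16083, 13599 and 16497 in EloC KD, and 19466, 22517 and 24019 in Control KD (-0.51 ± 0.21, limma adjusted p = 0.0746). NCAPD2, a condensin subunit, had 6946, 5506 and 6607 in EloC KD, and 7758, 9019 and 9320 in Control KD (-0.46 ± 0.17, limma adjusted p = 0.0518). In these 3 the groups did not overlap; each missed the threshold here and was under 0.05 with the replicate block, with DESeq2 and in the authors' deposited table, while edgeR gave adjusted p-values of 0.0608 to 0.0801. AURKB (0.23 ± 0.26) and FOXM1 (0.06 ± 0.24) were among the 9 positive estimates.

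The remaining EloC KD calls were APC/C core subunits, and they went in both directions. Of the 12 core subunits 2 were called higher and 3 lower, beside 21.3% of all genes called higher and 21.2% called lower. The share called in the core was thus near that of all genes. ANAPC13, a small subunit that steadies the arch, had 3896, 5011 and 3710 normalised counts in the EloC KD libraries against 3224, 3172 and 2864 in Control KD (0.44 ± 0.12, limma adjusted p = 0.0117). ANAPC7, an accessory arch subunit, had 5440, 5355 and 5457 in EloC KD, and 4292, 4349 and 4527 in Control KD (0.30 ± 0.09, limma adjusted p = 0.0222). These 2 were higher in every EloC KD library. CDC23 had 3044, 2928 and 2936 in EloC KD, and 3755, 3503 and 3466 in Control KD (-0.27 ± 0.07, limma adjusted p = 0.0145). CDC16 had 3266, 3233 and 3220 in EloC KD, and 3991, 4029 and 3562 in Control KD (-0.25 ± 0.08, limma adjusted p = 0.0274). ANAPC10, the subunit that with a coactivator reads the D-box, had 409.7, 426.6 and 408.4 in EloC KD, and 543.6, 543.6 and 504.0 in Control KD (-0.35 ± 0.12, limma adjusted p = 0.0315), and shares 24.6% of its exon length with a same-strand gene. These 3 were lower in every EloC KD library. When each of the 6 libraries was left out in turn, the calls of ANAPC10 and CDC16 held only without Control KD replicate 3. The call of ANAPC7 held without that library and without EloC KD replicate 2, and was lost without each of the others. The count of members called fell to 4 without EloC KD replicate 1 and likewise without Control KD replicate 2. The replicate block gave 12 calls, 3 higher and 9 lower, beside 3944 higher and 3897 lower of all 13764 genes tested. The block added higher BORA and lower ANAPC5, TOP2A, HMMR and NCAPD2.

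**Figure D5:**
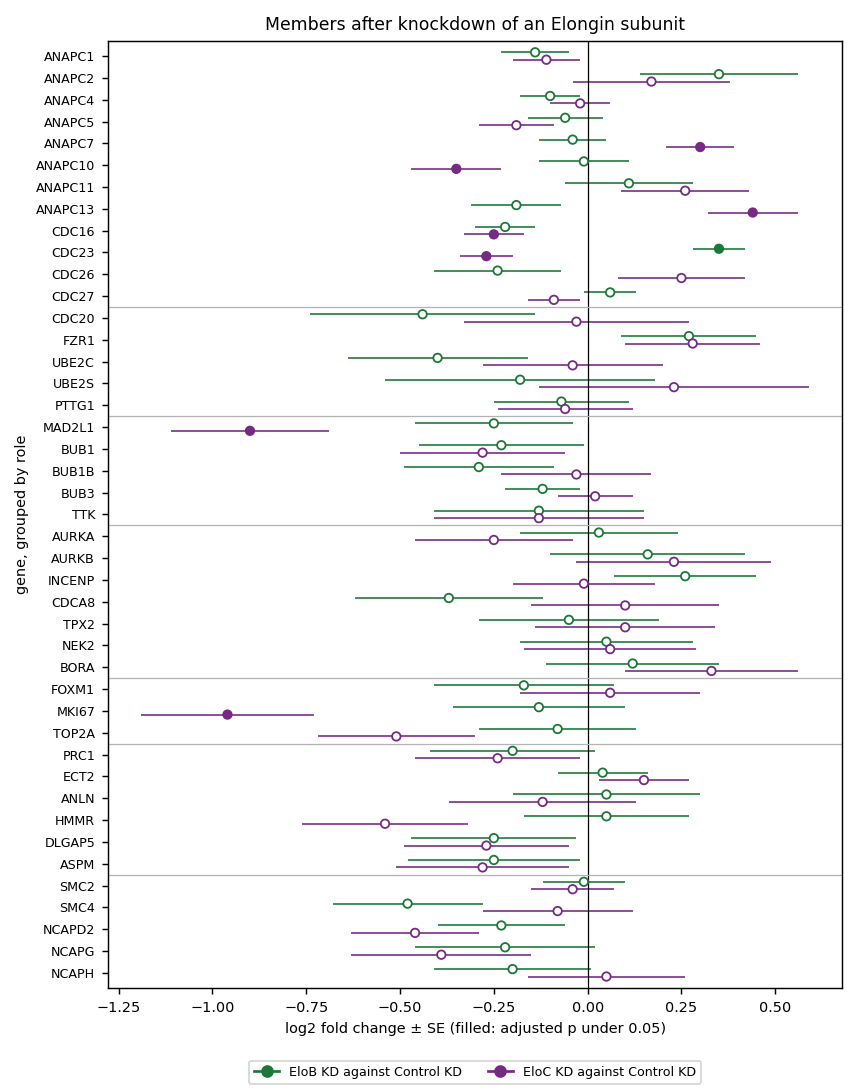
Log2 fold change with its SE for each tested member, EloB KD (green) and EloC KD (purple) against Control KD, grouped by role. CDC23 is filled for both knockdowns on opposite sides of 0, MAD2L1 and MKI67 are filled for EloC KD at -0.90 and -0.96, and SEs are wide below the 12 core subunits.

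Between the knockdowns, EloB KD against EloC KD, 8 of 43 members were called, 5 higher and 3 lower in EloB KD, beside 46.1% of all genes tested. CDC23 had 4655, 4534 and 4514 normalised counts in EloB KD against 3044, 2928 and 2936 in EloC KD, a log2 fold change of 0.62 ± 0.07 (limma adjusted p = 0.000101). ANAPC13 had 2603, 2842 and 2659 in EloB KD against 3896, 5011 and 3710 in EloC KD (-0.63 ± 0.12, limma adjusted p = 0.00143). Neither overlapped, as for 7 of 43 members, beside 56.3% of all genes. Together with ANAPC7 (-0.34 ± 0.09) these were the calls that held without each of the 6 libraries in turn. MKI67, MAD2L1, HMMR and ANAPC10 were higher in EloB KD by 0.83 ± 0.23, 0.64 ± 0.21, 0.59 ± 0.22 and 0.35 ± 0.12, and CDC26 was lower (-0.49 ± 0.17). In MAD2L1 and HMMR the groups overlapped through EloB KD replicate 1. Without that library 13 members were called, 11 higher and 2 lower, without EloB KD replicate 3 or EloC KD replicate 2 there were 3, and without EloC KD replicate 1 there were 4. The replicate block gave 10 calls, 5 higher and 5 lower, beside 3944 higher and 4227 lower of all 13764 genes tested. The block added lower CDCA8 and SMC4 (limma adjusted p = 0.0353 and 0.0436 with the block), which had -0.46 ± 0.25 and -0.40 ± 0.20 without it.

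Further genes of the same machinery, on lists that were also drawn up with earlier results known, are given for comparison. With the WT peptide, 7 of 13 other passenger, spindle and cytokinesis genes were called higher, and all 13 estimates were positive. The call with the smallest adjusted p was BIRC5 (survivin, the remaining passenger complex subunit). It had 13378 ± 163 against 9547 ± 509 normalised counts with the scrambled peptide (log2 fold change 0.49 ± 0.04, limma adjusted p = 0.00150). SPAG5 and CEP55 rose by 0.47 ± 0.04 and 0.48 ± 0.06. Among other APC/C and checkpoint genes 2 of 14 were called higher, the kinetochore adaptor SPDL1 (0.35 ± 0.05) and the separase ESPL1 (0.31 ± 0.06). CDC25C, the phosphatase that activates CDK1, was the 1 of 8 mitotic entry and exit genes called higher (0.46 ± 0.06). NCAPG2 of condensin II was the 1 of 12 cohesin and condensin II genes called higher (0.23 ± 0.04). Of 9 DREAM and MuvB genes 0 were called in limma, with an unadjusted p under 0.05 for 1, beside 1753 of all 13105 genes. Of 20 G1/S and replication genes 0 were called higher and 1 lower, the helicase subunit MCM6 (-0.28 ± 0.05), and their median was -0.09.

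In each knockdown the largest change of an APC/C gene lay outside the 12 core members, in ANAPC16 for EloB KD and in ANAPC15 for EloC KD. ANAPC16, a small arch subunit, fell to 1145 ± 124 normalised counts in EloB KD and 1285 ± 96.6 in EloC KD, against 2406 ± 126 in Control KD (log2 fold changes -1.07 ± 0.11 and -0.91 ± 0.11, limma adjusted p = 0.000176 and 0.000131). ANAPC15, which helps the APC/C discard the checkpoint complex, had 284.6 ± 11.7 in EloB KD and fell to 107.3 ± 20.1 in EloC KD, against 318.5 ± 17.6 in Control KD (-0.16 ± 0.16 and -1.57 ± 0.16). BIRC5 averaged 5586 ± 1652 in EloC KD against 14730 ± 3131 in Control KD (-1.42 ± 0.28, limma adjusted p = 0.00248). In EloC KD 6 of 20 G1/S genes were called lower and 0 higher, beside 21.2% of all genes called lower and 21.3% called higher. Among the 6 was CCNE1 (cyclin E1, -1.30 ± 0.13). In EloB KD limma called 0 of the 20, where an unadjusted p was under 0.05 for 1, beside 4694 of all 13764 genes. Both knockdown comparisons share the Control KD libraries.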

How the data were processed

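Per the labels' protocols, column-purified, DNase-treated total RNA went into stranded mRNA libraries. Per the submitters' processing notes, hg38, featureCounts and DESeq2 were used, without versions; the aligner is not given in the sources used here. The authors deposited, per library, the signal as a DESeq2-normalised read count. Dividing by each library's step returned whole reads for 100% of values within a tolerance of 0.05. The authors' deposited tables of adjusted p-values entered no test. In them 2 members are under 0.05 for EloB KD, beside 3420 over all genes, and 10 for EloC KD, beside 6269. For EloB KD against EloC KD there are 8 members, beside 6801 over all genes. For the WT peptide there are 27, beside 506. These members include every member called here.

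Here limma 3.58.1 (R 4.3.3) modelled log2(normalised count + 1), with its intensity trend, for genes averaging 10 or more over an experiment's 9 libraries (13764 and 13105 genes). The 3 groups shared 1 spread; tests were 2-sided, adjusted after Benjamini and Hochberg across every gene, at a threshold of 0.05. Groups of 3 against 3 cannot give an exact permutation p below 0.1. edgeR 4.0.16 and DESeq2 1.42.0 were run on recovered reads. Other alternatives were TMM and quantile scaling, pseudocounts of 0.5 and 5, no filter or a mean of 50, a fit of the 2 groups alone, a threshold of 0.01, each library left out, and a replicate block. Same-numbered libraries deviated together (correlation of deviations from group means 0.236 to 0.566 for knockdown libraries, other pairs -0.439 to 0.0703, and 0.254 to 0.715 for peptide libraries, other pairs -0.546 to 0.336). The numbers were therefore taken to pair libraries in the replicate block only, from the data and not from the labels. The main fit left this pairing out, so estimates, SEs and adjusted p-values printed without the block ignore it.

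Members, classes and other lists were chosen with earlier results of these data known. Values of every library are given for called members, at most the 12 with the smallest adjusted p per comparison, and for the smallest of a role where none passed; others so given were chosen after their values were seen. Up to 3 called genes of each comparison list may be named. Gene positions and exon lengths are from GENCODE v29, and overlaps are shares of exon length, whose part in the results was not tested. Only the limma fit without the block was run on simulated counts, which were drawn without the pairing of same-numbered libraries.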

Additional observations from a re-analysis of the deposited data

How the results depend on the processing

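Members called under other settings were as follows, in limma unless another method is named. Counts over all genes with the block stand with each comparison above. For the other settings they are not given, so those member counts have no share beside them. With the replicate number as a block there were 3 in EloB KD, 12 in EloC KD, 10 for EloB KD against EloC KD, 34 with the WT peptide, 27 with the Mutant peptide and 22 in WT against Mutant peptide. DESeq2 gave 2 in EloB KD, 9 with the Mutant peptide and 6 in WT against Mutant peptide. At an adjusted p under 0.01 there were 2 in EloC KD, 2 for EloB KD against EloC KD and 11 with the WT peptide, and a fit of the 2 groups alone gave 5 for EloB KD against EloC KD. Leaving out each library gave 1 to 2 in EloB KD, 4 to 9 in EloC KD, 3 to 13 between the knockdowns, 11 to 18 with the WT peptide, 0 with the Mutant peptide and 0 in WT against Mutant peptide. Without replicate 2 of every peptide group, added after seeing the data, these last 2 became 3 and 1. The causes were not tested. No member named with a call changed sign under the settings run. MAD1L1 (0 to 3 reads) and NUSAP1 (1.97 to 12.2 normalised counts) lay under the filter at these depths; why they are low was not tested.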
